A study of Mus musculus with 8 samples.

Results

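De novo lipogenesis is the route by which the liver makes fatty acids from carbohydrate. Citrate leaves the mitochondrion and is cut to acetyl-CoA, which is carboxylated to malonyl-CoA and polymerised to palmitate, and palmitate is then lengthened and desaturated. In hepatocytes the genes of this route are switched on by feeding, chiefly through SREBP-1c, which answers to insulin and liver X receptors, and ChREBP, which answers to glucose. The 10 genes described here were chosen by name as the enzymes Acly, Acaca, Acacb, Fasn, Scd1, Elovl5 and Elovl6, the transcription factors Srebf1 and Mlxipl, and the lipogenic protein gene Thrsp. Each had 1 entry among the 43629 entries with values, and all 10 passed the filter on low values (a mean over the mice of 1 or more FPKM, the fragments per kilobase of transcript scaled to sequencing depth).

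The RNA came from livers of 8 male C57BL/6 mice aged 7 to 8 weeks, with 1 library per mouse. Every mouse, the controls included, received 1 mg/kg CL316243 under the skin, an agonist of the β3-adrenergic receptor that makes fat cells release fatty acids, and was killed 2 h later. At 48 h before CL316243, 4 mice had been given 5 µg antagomiR-122, an antisense inhibitor of the hepatocyte microRNA miR-122, by the tail vein, and 4 mice antagomiR-control. The comparison asks how lipogenic transcripts differ with antagomiR-122 while β3-adrenergic receptors are stimulated. Animals that had no CL316243 were not analysed here. The labels give neither the feeding state nor the hour of death.

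The library of antagomiR-122 replicate 4 stood apart. Its relative depth, with a median library at 1, was 2.37 against 0.891 to 1.13 in the other 7, and it had 18918 genes above 0 against 17774 to 18311. Its size factor from the median of gene ratios, 1.01, was the highest of the 8, against 0.993 to 1.004 in the others. Its FPKM summed to 541058, against 623513 to 701285. Summed only over genes above 0 in every library, without mitochondrially encoded genes, it did not stand apart. Relative to the geometric mean of the 8 libraries that sum was 0.973, against 0.955 to 1.07 in the others. Each of the 10 genes is given with and without it, and the part of depth in its levels was not tested. Hepatocyte markers were high in every library, with 12048 to 14934 summed FPKM over 6 genes. Of 6 fat cell markers, Adipoq reached at most 0.451 FPKM, Retn 0.237, Plin1 0.0597 and Lep 0.0135, and none of the 6 was at 0 in every mouse. Fabp4 was at 10.5 to 16.7 FPKM over the 8 mice. Cfd was at 0.150 to 0.239 FPKM in controls and at 1.68, 0.885, 3.52 and 0.238 FPKM with antagomiR-122, higher than all controls in 3 of the 4 treated mice. The 6 summed to 13.2 to 17.0 FPKM in controls and 11.4 to 18.7 with antagomiR-122, a sum made up mostly of Fabp4. Adipoq was at 0.451 and 0.177 FPKM in antagomiR-122 replicates 1 and 3, the mice highest for Cfd. It was at 0 in antagomiR-122 replicates 2 and 4 and at most 0.0284 FPKM in controls. Summed markers of other liver cells overlapped between the groups, at 130 to 178 against 136 to 173 FPKM for Kupffer cells, 58.2 to 65.6 against 47.0 to 64.6 for endothelial cells, 92.4 to 110.0 against 81.7 to 108 for stellate cells, 30.4 to 38.7 against 26.0 to 30.5 for cholangiocytes and 5.80 to 10.1 against 5.86 to 11.0 for lymphocytes (control first). Within these lists, Lrat of stellate cells (3.94 to 5.67 against 3.01 to 3.79 FPKM) and Spp1 of cholangiocytes (27.2 to 34.7 against 23.8 to 26.6 FPKM) had groups apart. All 6 endothelial markers had a lower fitted level with antagomiR-122, Lyve1 among them at 8.03 to 11.0 against 5.58 to 8.49 FPKM. None of these passed over all genes, and their part in the results was not tested. In bulk tissue, fewer cells of a type and less RNA per cell cannot be told apart.

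Sequence in front of the start sites is shown first, because the 10 genes are treated together as targets of shared factors. NF-Y, a factor that binds CCAAT boxes, works beside SREBP on many lipogenic promoters. RefSeq (GRCm38.p6) gave a promoter for 9 of the 10 genes, and CCAAT was searched on both strands in the 100 bases before each start. The 9 genes have 12 listed promoters, since Srebf1 has 3 starts and Mlxipl 2. The listed starts of Acaca and Acacb lie inside these genes as the authors' annotation places them. Acacb begins there at base 114146535 of chromosome 5, and its window at base 114165418. Acaca begins at base 84129672 of chromosome 11, and its window at base 84195338. Sequence before those outer gene starts was not searched. CCAAT was present in 5 of the 12, each of another gene, against 18.9% of the 32851 promoters in the same table. The windows of these genes follow, 5′ to 3′ on the gene's own strand, with CCAAT or its complement ATTGG in capitals.
Fasn, chr11:120824548-120824647, minus strand: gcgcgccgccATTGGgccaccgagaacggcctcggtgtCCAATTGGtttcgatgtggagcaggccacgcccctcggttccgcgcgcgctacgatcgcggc
Thrsp, chr7:97417551-97417650, minus strand: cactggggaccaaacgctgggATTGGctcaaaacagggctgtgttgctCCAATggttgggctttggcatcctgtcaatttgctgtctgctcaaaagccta
Elovl5, chr9:77917265-77917364, plus strand: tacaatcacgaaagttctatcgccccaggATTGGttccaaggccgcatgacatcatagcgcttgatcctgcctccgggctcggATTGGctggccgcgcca
Srebf1, chr11:60210472-60210571, minus strand, 1 of 3 annotated starts: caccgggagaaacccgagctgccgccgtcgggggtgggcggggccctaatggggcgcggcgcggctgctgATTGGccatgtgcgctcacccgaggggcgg
Acacb, chr5:114165418-114165517, plus strand: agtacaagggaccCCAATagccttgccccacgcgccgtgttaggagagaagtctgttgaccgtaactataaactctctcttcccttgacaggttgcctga

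Fasn held 3 matches in this window, at 90, 62 and 59 bases before its start, and the last pair overlap as CCAATTGG. Thrsp held 2, at 79 and 52 bases, and Elovl5 held 2, at 71 and 17 bases. Acly had no CCAAT there and held 3 copies of GGGCGG, a box read by Sp1. That box was in 4 of the 12 promoters at this length, at Acly, Mlxipl and Srebf1, against 24.7% of all promoters. The sterol response element TCACNCCAC, a binding sequence of SREBP, was in none of the 12 promoters within 100 bases, and 0.423% of all promoters hold it. Within 250 bases it was found in 1 of the 12, at Mlxipl, against 1.05% of all promoters. The palindrome CACGTG, the core read by ChREBP and USF, was in 2 of the 12 within 250 bases, at Mlxipl and Elovl5, against 6.02% of all promoters. A match here describes letters in a window and does not show binding. Only these strings were searched, so a string not found does not show that the factor has no site there.

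Matches to the seed of miR-122-5p occurred in these genes at a share near that of other genes. Each gene was searched in its longest 3′ UTR of GENCODE M21 (GRCm38), where ACACTCC or CACTCCA was present in 2 of the 10 members, against 15.5% of 10464 tested genes. Both are CACTCCA matches, capitals below, and shown as the only such matches among the 10 genes.
Elovl6, chr3:129636536-129636557, plus strand, base 3055 of a 3′ UTR of 5005 bases: agtgagaatCACTCCAttcaca
Acacb, chr5:114249709-114249730, plus strand, base 98 of a 3′ UTR of 1141 bases: tcacggagcCACTCCAaatgta

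No lipogenic gene differed between the groups beyond the spread between mice. Of the 10 genes, 8 had a higher and 2 a lower fitted level with antagomiR-122, where 53% of the 11131 tested genes were higher. The median log2 fold change was 0.19, against 0.01 over all tested genes. None of the 10 passed limma with Benjamini-Hochberg adjustment over all genes (adjusted p from 0.796 to 0.991), and 0% of all tested genes passed. None reached an unadjusted limma p under 0.05, against 7.44% of all genes, and in none did the groups lie apart, against 4.52%. Without antagomiR-122 replicate 4, the highest treated mouse for all 10 genes, the median of the 10 genes turned to -0.02. Without antagomiR-122 replicate 2, the lowest treated mouse for 7 of them, this median was 0.33. All log2 fold changes and intervals here are on the log2(FPKM + 1) scale, with antagomiR-122 over control.

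**Figure D1:**
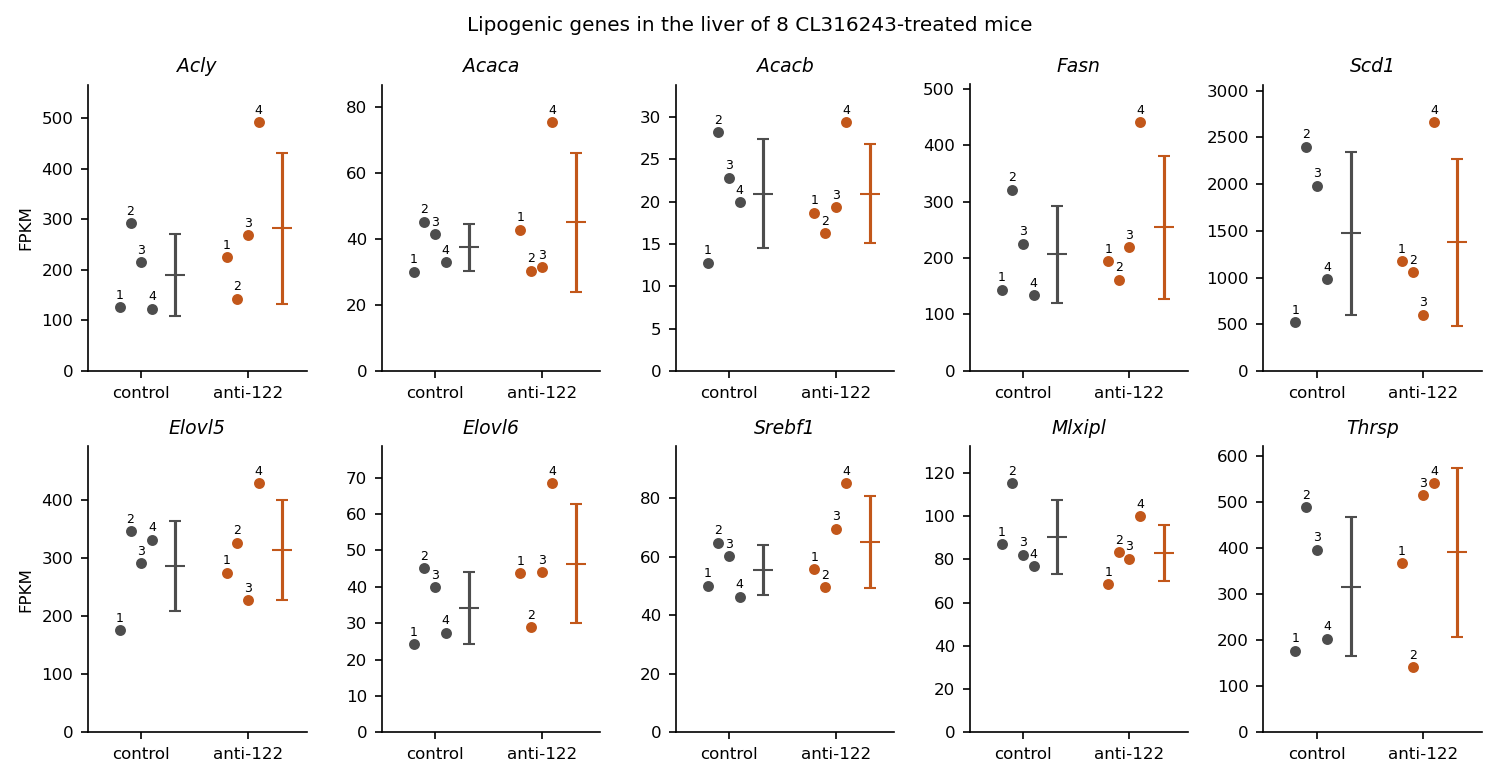
Level of each lipogenic gene in FPKM (y axis, from 0) in the 4 antagomiR-control and 4 antagomiR-122 mice (x axis). Points are mice with their replicate number, and bars give the mean ± SD; the groups overlap in all 10 panels, and antagomiR-control replicate 2 and antagomiR-122 replicate 4 are the highest of their groups throughout.

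Acly, ATP citrate lyase, makes the cytosolic acetyl-CoA that feeds the pathway. It was at 126, 292, 215 and 123 FPKM in the controls, in the order of their replicate numbers here and throughout. With antagomiR-122 it was at 225, 143, 268 and 493 FPKM. The treated mouse at 493 FPKM lay above every control, while the one at 143 FPKM lay below 2 of them. The means were 189 ± 80.8 and 282 ± 149.6 FPKM (SD, n = 4 each). The log2 fold change was 0.53 ± 0.42 (SE), with a 95% interval from -0.43 to 1.48 (limma adjusted p = 0.813). Without antagomiR-122 replicate 4 it was 0.21.

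Acaca and Acacb encode the acetyl-CoA carboxylases ACC1 and ACC2. ACC1 is cytosolic and supplies malonyl-CoA for synthesis, and ACC2 sits at the mitochondrial surface, where malonyl-CoA restrains fatty acid entry through CPT1. Acaca was at 30.1, 45.2, 41.5 and 33.1 FPKM in controls and at 42.8, 30.4, 31.5 and 75.5 FPKM with antagomiR-122. Only antagomiR-122 replicate 4 lay outside the control range. The log2 fold change was 0.18 ± 0.28 (SE), and -0.10 without that mouse. Acacb was at 12.8, 28.2, 22.8 and 20.0 FPKM in controls and at 18.7, 16.2, 19.4 and 29.4 FPKM with antagomiR-122. Its group means were both 20.9 FPKM, with SDs of 6.42 and 5.82, and its interval ran from -0.53 to 0.56. The sign turned without antagomiR-122 replicate 4, to -0.15, and without control replicate 1, to -0.19. Acaca exceeded Acacb in every mouse, by 1.60 to 2.57 times per transcript length.

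Fasn, the synthase that builds palmitate, was at 144, 321, 226 and 135 FPKM in the controls. With antagomiR-122 it was at 194, 162, 219.9 and 441 FPKM. The 3 lower treated mice all lay inside the control range. The means were 206 ± 86.7 and 254 ± 127 FPKM (SD, n = 4 each), with a log2 fold change of 0.28 ± 0.37 (SE; limma adjusted p = 0.898). Without antagomiR-122 replicate 4 it was -0.02. Fasn tracked Acly closely among controls, at 1.05 to 1.14 times its level in each mouse. With antagomiR-122 the ratio was 0.864, 1.13, 0.820 and 0.896, so that 3 of 4 treated mice lay below all controls. It is 1 of several ratios computed between these genes, and none was tested. The ratio of Srebf1 to Mlxipl likewise lay outside the control range in 3 of 4 treated mice, there above it.

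Scd1, the desaturase that makes oleate and palmitoleate, was the most abundant and most variable of the 10 genes. It was at 525, 2401, 1981 and 979.8 FPKM in controls, a 4.58-fold range. With antagomiR-122 it was at 1174, 1060.5, 601 and 2666 FPKM, a 4.44-fold range. Each group held both low and high mice, and the means were 1472 ± 869 and 1375 ± 896 FPKM (SD, n = 4 each). The log2 fold change was -0.07 ± 0.60 (SE), with an interval from -1.46 to 1.32, so that differences of up to 2.49-fold higher or to 0.363 of the control level were not distinguishable here. It was -0.46 without antagomiR-122 replicate 4. The sign turned to 0.24 without control replicate 2, to 0.15 without control replicate 3 and to 0.25 without antagomiR-122 replicate 3. Scd1 was 2.73 to 8.78 times as high as Fasn. That ratio was lowest in antagomiR-122 replicate 3, where Scd1 was low while Fasn was not. Reads shared with the related Scd genes beside it could be split between them by the authors' counting. In the resulting values Scd2 was at 0.716 to 1.42 FPKM over the 8 mice. Scd3 reached at most 0.0399 FPKM and Scd4 at most 0.0386 FPKM.

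The elongases act after palmitate. ELOVL6 lengthens saturated and monounsaturated chains, and ELOVL5 mainly polyunsaturated ones. Elovl6 was at 24.3, 45.1, 39.8 and 27.4 FPKM in controls and at 43.8, 29.0, 44.0 and 68.5 FPKM with antagomiR-122. It had the smallest p of the 10 genes, at a log2 fold change of 0.41 ± 0.27 (SE; limma unadjusted p = 0.168, adjusted p = 0.796). Elovl6 without antagomiR-122 replicate 4 was at 0.20, and without antagomiR-122 replicate 2, the lowest treated mouse, at 0.61 (limma unadjusted p = 0.0364, adjusted p = 0.539). Elovl5 was at 176, 345, 291 and 331 FPKM in controls and at 274, 326, 227 and 428 FPKM with antagomiR-122. Its log2 fold change was 0.14 ± 0.25 (SE), turning to -0.02 without antagomiR-122 replicate 4 and to -0.08 without control replicate 1. The mice stood in another order than for Elovl6: control replicate 4 was second lowest for Elovl6 and second highest for Elovl5 in its group.

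The regulators varied less than the enzymes. Srebf1 encodes SREBP-1a and SREBP-1c from separate starts, and gene-level values do not tell these forms apart. It was at 50.1, 64.8, 60.3 and 46.4 FPKM in controls and at 55.7, 49.7, 69.7 and 85.1 FPKM with antagomiR-122, with a log2 fold change of 0.21 ± 0.17 (SE; limma adjusted p = 0.818), and 0.07 without antagomiR-122 replicate 4. Mlxipl, the gene of ChREBP, was at 87.1, 115, 82.2 and 77.0 FPKM in controls and at 68.5, 83.5, 80.4 and 100.02 FPKM with antagomiR-122. Its interval, -0.44 to 0.21, was the narrowest of the 10 genes, around a log2 fold change of -0.12 that was -0.21 without antagomiR-122 replicate 4 and turned to 0.01 without control replicate 2. Both factors are controlled after transcription as well, SREBP-1c by proteolytic release and ChREBP by glucose metabolites, and neither step is measured by these libraries.

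Thrsp, or Spot 14, is a thyroid hormone and carbohydrate responsive gene whose product promotes fatty acid synthesis. It was at 177, 489.7, 397 and 203 FPKM in controls and at 368, 141, 515 and 541 FPKM with antagomiR-122. The lowest of all 8 mice was thus a treated one, antagomiR-122 replicate 2, although 2 treated mice were the highest of the 8. The log2 fold change was 0.26 ± 0.50 (SE), with an interval from -0.90 to 1.42. Without antagomiR-122 replicate 4 it was 0.05, and single omissions of a mouse moved it between 0.03 and 0.69.

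**Figure D2:**
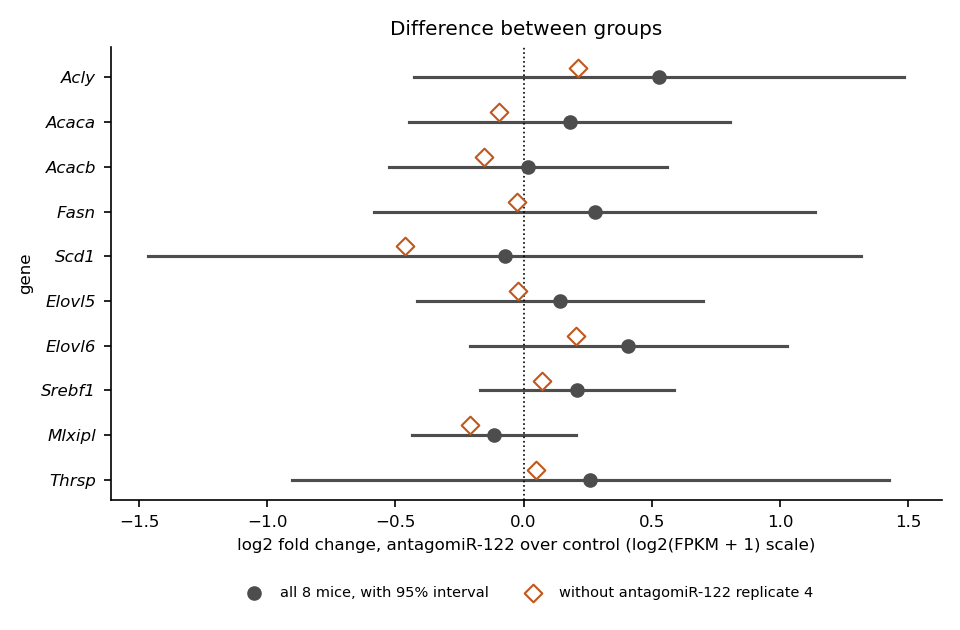
Log2 fold change of each lipogenic gene, antagomiR-122 over control, on the log2(FPKM + 1) scale (x axis), by gene (y axis). Filled points with lines are the estimate from all 8 mice and its 95% interval, and every interval spans 0. Open diamonds are the estimate without antagomiR-122 replicate 4. That mouse was the highest treated one for all 10 genes, so leaving it out lowers every estimate.

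In the authors' deposited table none of the 10 genes was called significant, against 1.42% of the 13259 genes that Cuffdiff tested. Its p was under 0.05 for 2 of them, Elovl6 (p = 0.00095, q = 0.0624) and Acly (p = 0.0018, q = 0.101), where 6.92% of tested genes had such a p in the authors' deposited table. Both tests rest on the same libraries and are no separate evidence. The other 8 genes had p from 0.0519 (Thrsp) to 0.995 (Acacb) in the authors' deposited table.

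The larger pattern in these genes lay between mice of 1 group. The SD within groups, on the log2(FPKM + 1) scale, had a median of 0.46 over the 10 genes, against 0.14 over the 4830 tested genes whose mean reached 10 FPKM. It was 0.95 for Scd1, 0.81 for Thrsp, 0.67 for Acly and 0.61 for Fasn, and each of these 4 exceeded at least 98.2% of those genes. Srebf1 at 0.29 and Mlxipl at 0.24 varied least, and even Mlxipl exceeded 83.2% of them. The group accounted for a median of 5.67% of the variance of the 10 genes, against 10.1% over all tested genes. From the lowest to the highest mouse the range was 5.08-fold for Scd1, 4.01-fold for Acly, 3.84-fold for Thrsp and 3.28-fold for Fasn, and 1.68-fold for Mlxipl.

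The same mice were high or low for most of the 10 genes. AntagomiR-control replicate 2 was the highest control for all 10 genes, and antagomiR-122 replicate 4 the highest treated mouse for all 10. The latter was the highest of the 8 for 9 genes, the exception being Mlxipl. Control replicate 1 was the lowest of the 8 for Acaca, Acacb, Scd1, Elovl5 and Elovl6, and control replicate 4 for Acly, Fasn and Srebf1. Among treated mice, replicate 2 was lowest for 7 genes. The median deviation of the 10 genes from their mean over all mice was -0.63, 0.44, 0.06 and -0.33 log2 units in the controls, by replicate number. With antagomiR-122 it was -0.07, -0.33, -0.01 and 0.80. The highest value belongs to the deepest library (relative depth 2.37) and the next highest to the second deepest, antagomiR-control replicate 2 (1.13). The lowest belongs to antagomiR-control replicate 1 (0.941), which was not the shallowest library. AntagomiR-control replicates 3 and 4 (0.916 and 1.01) were at 0.06 and -0.33. AntagomiR-122 replicates 1, 2 and 3 (0.891, 0.994 and 1.06) were at -0.07, -0.33 and -0.01. The part of depth in this order was not tested.

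**Figure D3:**
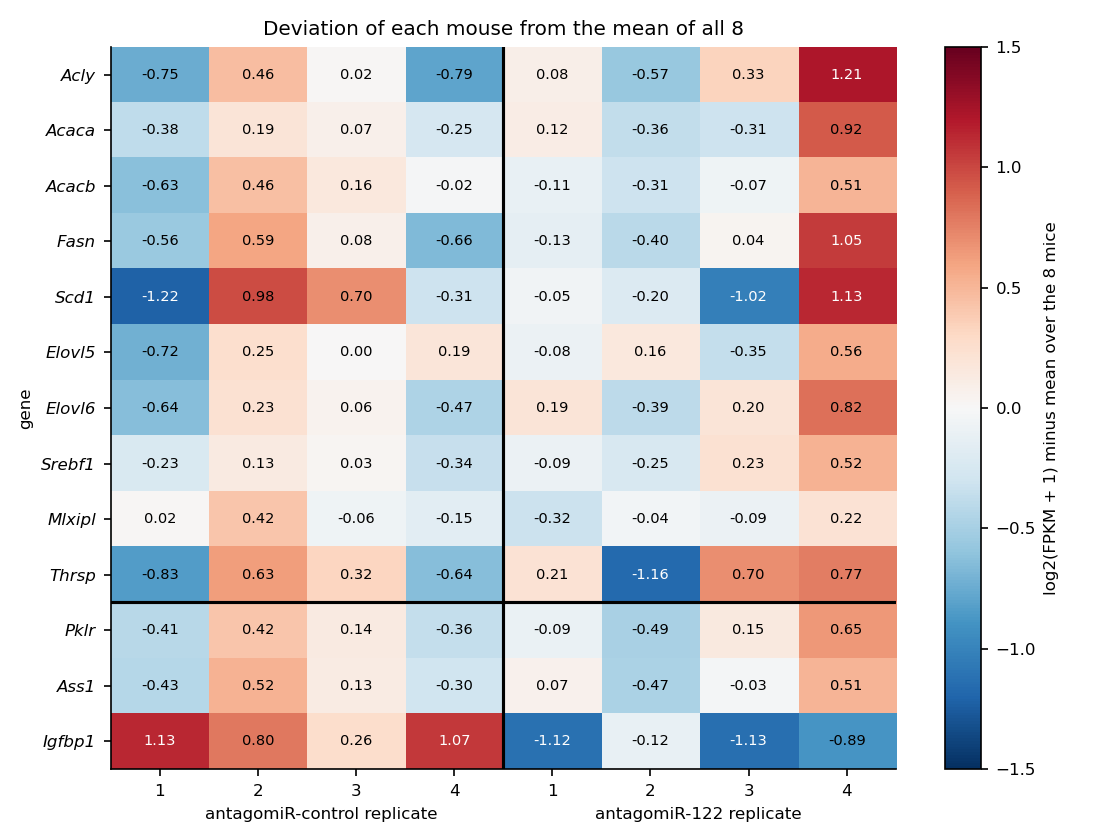
Deviation of each mouse (columns) from the mean of all 8, in log2(FPKM + 1) units, for the 10 lipogenic genes (above the line) and 3 other liver genes (below it). Red is above and blue below the mean; the lipogenic rows are lowest in antagomiR-control replicate 1 (median -0.63) and highest in antagomiR-122 replicate 4 (median 0.80), whereas Igfbp1 is above its mean in all controls and below it in all treated mice.

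Genes departed from the shared pattern to different degrees. The root mean square difference from the median of the other 9 genes was 0.17 log2 units for Elovl6 and Acacb, 0.18 for Fasn and 0.21 for Acaca. It was 0.54 for Scd1, 0.46 for Thrsp, 0.36 for Mlxipl and 0.33 for Elovl5. This measure also grows with how widely a gene varies. The root mean square of a gene's own deviations was 0.82 for Scd1, 0.71 for Thrsp, 0.37 for Elovl5 and 0.21 for Mlxipl. Only for Mlxipl was the difference larger than the gene's own variation. In antagomiR-122 replicate 3 the 10 genes parted most, with Scd1 at -1.02 and Thrsp at 0.70 from their means. Fasn stood at 0.04 and Acly at 0.33 in that mouse. Elovl5 and Elovl6 also parted, with the ratio of Elovl5 to Elovl6 ranging from 5.17 in that mouse to 12.1 in control replicate 4.

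Outside the 10 genes, Pklr was closest to their median pattern among the 2902 tested genes that varied enough to be compared, at a root mean square difference of 0.13 log2 units (median of the 2902, 0.51). Pklr, the liver pyruvate kinase and a classical ChREBP target, was at 109, 195, 161 and 114 FPKM in controls and at 137, 104, 162 and 229 FPKM with antagomiR-122. Next came Ass1, argininosuccinate synthase of the urea cycle, at 0.15. Mycl, a transcription factor of the MYC family, was at 0.16, and Ank, a pyrophosphate transporter, and Mast3, a protein kinase, were each at 0.17. These genes were picked for likeness over 8 mice, so the values are a description.

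Igfbp1, an insulin-repressed gene that codes for a binding protein of insulin-like growth factors, did not follow the lipogenic genes. It was at 227, 179.9, 124 and 217 FPKM in controls and at 47.1, 95.1, 46.5 and 55.4 FPKM with antagomiR-122, so that every treated mouse lay below every control. The log2 fold change was -1.63 ± 0.26 (SE; limma adjusted p = 0.251 over all genes), which did not pass the threshold. Control replicate 1, the lowest of the 8 for 5 lipogenic genes, was the highest of the 8 for Igfbp1. Igfbp1 is 1 of 10 feeding genes examined and is not shown to stand for the others.

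Of 7 related lists, 85 different genes were tested and none passed over all genes in limma. The groups lay apart in 6 of the 85, or 7.06%, against 4.52% of all tested genes. Among them were Trib3, Sec23a, Thrb, Nr1d1 and Igfbp1. The lists were chosen with earlier results of these data known.

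Supply of acetyl-CoA, NADPH and pyruvate counted 10 of 13 genes higher and 3 lower; the median stood at 0.09 in log2 fold change. Slc25a1, which exports citrate from mitochondria, stood at 0.14, and Me1, the malic enzyme that makes NADPH, at 0.20. Pyruvate carboxylase Pcx was at 0.15, malate dehydrogenase Mdh1 at 0.09 and Pklr at 0.11. Me1 was at 129 FPKM in control replicate 1 and at 259 FPKM in antagomiR-122 replicate 4, its lowest and highest mice. These are the same extremes as in the lipogenic pattern. Without antagomiR-122 replicate 4, Me1 was at 0.06, Slc25a1 at 0.08, Mdh1 at 0.06 and Pklr at -0.09.

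Other elongation and desaturation genes split 8 higher to 6 lower among 14 tested, with a median of 0.04. Elovl3, an elongase of saturated and monounsaturated very long chains, was the most different at -0.72 ± 0.42 (SE), with 333 to 662 FPKM in controls and 180 to 611 FPKM with antagomiR-122. Its highest mice, control replicate 4 and antagomiR-122 replicate 2, were among the low ones of the lipogenic pattern. The polyunsaturated fatty acid desaturases Fads1 and Fads2 stood at -0.03 (-0.12 without antagomiR-122 replicate 4) and 0.24, and Fads3 at -0.35. Ptplad1, a dehydratase of the elongation cycle, was at 0.27 and the electron donor Cyb5a at 0.18. No gene of this list had groups apart.

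Proteins that act on acetyl-CoA carboxylase or malonyl-CoA had 4 of 8 tested genes higher and 4 lower. Mid1ip1, which promotes polymerisation of the carboxylase, was at 22.9 FPKM in both groups (SD 5.96 and 8.76, n = 4 each), and at -0.25 on the log2 scale without antagomiR-122 replicate 4. Mlycd, malonyl-CoA decarboxylase, stood at 0.20 ± 0.08 (SE; limma adjusted p = 0.613). The AMPK subunit genes Prkaa2 and Prkag2 were at -0.09 and -0.12, the latter at -0.23 without that mouse. Trib3, a pseudokinase reported to promote degradation of the carboxylase in fat tissue, was at 0.634 to 1.32 FPKM in controls and 1.36 to 3.92 FPKM with antagomiR-122, with groups apart (limma adjusted p = 0.321).

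Genes that retain, carry or cut SREBPs had 4 of 11 higher and 7 lower, with a median of -0.07. The retention proteins Insig1 and Insig2 stood at -0.27 and -0.07, the site-2 protease gene Mbtps2 at -0.27, Srebf2 at -0.17 and the ubiquitin ligase subunit Fbxw7 at -0.16. Sec23a, a coat protein of the vesicles that leave the endoplasmic reticulum, was at 32.6 to 38.6 FPKM in controls and 39.0 to 41.5 with antagomiR-122 (limma adjusted p = 0.604). Insig2 was abundant, at 640 to 992 FPKM over the 8 mice, against 42.0 to 85.4 FPKM for Insig1.

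Nuclear receptors and factors of lipogenic promoters had 12 of 19 higher and 7 lower, with a median of 0.03. Nr1h3, the liver X receptor α that activates Srebf1, was at 44.9 ± 2.51 and 48.5 ± 2.77 FPKM (SD, n = 4 each) and stood at 0.11. Its partner Rxra stood at 0.13. Nr1d1, the repressor REV-ERBα, was at 20.0 to 26.4 FPKM in controls and 34.8 to 58.2 FPKM with antagomiR-122 (limma adjusted p = 0.251). Thrb, the thyroid hormone receptor β, was at 8.31 to 8.67 FPKM in controls and 5.95 to 8.24 with antagomiR-122. Nr0b2, the repressor SHP, stood at 0.56.

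Among other targets of these factors, 7 of 11 tested were higher and 4 lower, with a median of 0.14. Lpcat3, which remodels phospholipids, stood at 0.14 and the cholesterol exporter Abca1 at -0.23. Pnpla3, a lipid droplet protein and SREBP-1c target, lay under the filter, at 0.302 to 1.72 FPKM in controls and 0.128 to 0.931 FPKM with antagomiR-122. Its highest mice were control replicate 2 and antagomiR-122 replicate 4, as in the lipogenic genes. Of 10 genes known to change with feeding, 3 were higher and 7 lower, with Cpt1a, which admits fatty acids to mitochondria, at 0.32 and Igfbp1 at -1.63.

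**Figure D4:**
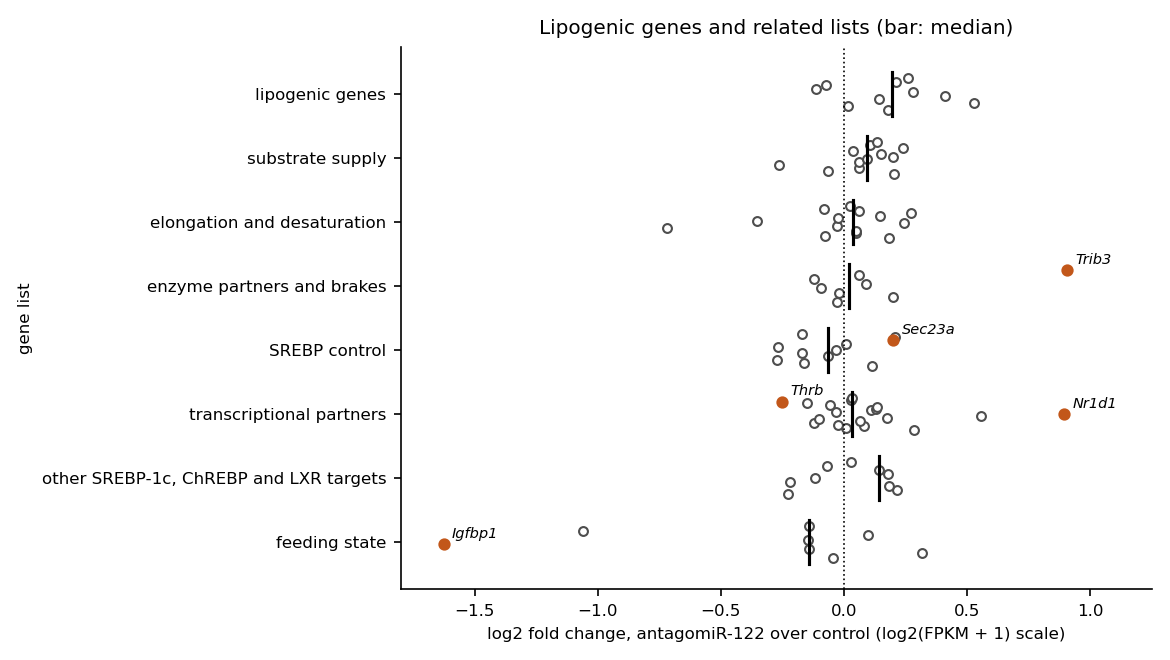
Log2 fold change, antagomiR-122 over control, on the log2(FPKM + 1) scale (x axis), of genes in the lipogenic set and 7 related lists (y axis). Black bars are medians over all tested genes of a list, of which a few are not drawn, and filled, named points are genes whose groups do not overlap; none of the 10 lipogenic genes is among them, and their median is 0.19.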

How the data were processed

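Liver RNA of 8 mice was sequenced on an Illumina NextSeq 500, per the labels. Groups and replicate numbers came from the sample titles, which matched every per-sample column. Per the submitters' processing notes the build was GRCm38, and the tools were Cuffdiff, Cufflinks 2.2.1, TopHat2 2.0.13, cutadapt 1.7.1 and bcl2fastq 2.15.0.4. For annotation release, strand setting and the scaling of libraries, nothing was given in the sources used. Deposited by the authors were FPKM per mouse and per group, and the p-value, the q-value and a log2 fold change, treated as a score because some entries are infinite. A count test was not used, since FPKM are no counts. Relative depth came from the commonest ratio between libraries of values under 0.3 FPKM, and absolute depth is not given.

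Values were tested on the log2(FPKM + 1) scale, where the mean over mice reached 1 FPKM, by limma 3.58.1 (R 4.3.3; two-sided, with the trend and robust options), with Benjamini-Hochberg adjustment over all of them and a threshold of 0.05. The method was tested on simulated data. The genes and lists were chosen with earlier results of these data known. Named are the 10 genes, the 4 smallest p of each of 7 related lists, 11 fixed pathway genes and the 5 genes closest in pattern. A few of these are not reported here, though counts and medians of lists include them. Hacd2 and Hacd3 were matched through the older symbols Ptplb and Ptplad1. Alternatives were other pseudocounts, filters and scalings, limma without trend, a replicate block and each mouse left out.

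With the strand setting unknown, reads of genes that overlap on opposite strands cannot be told apart where they share sequence. These are Srebf1 and Rai1, Elovl6 and Gm35986, Mlxipl and Gm43500, Acaca and Gm11437, and Acacb and Gm13784. On the same strand, where strand cannot separate reads, Gm37391 overlaps Acaca, Gm43072 overlaps Elovl6, and microRNA genes overlap Acly and Srebf1. Mouse strain, dose and timing are as the labels give them.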

Additional observations from a re-analysis of the deposited data

Results flagged for a closer look

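In 6 of 92 groups of 4 mice examined, over the 10 lipogenic genes and 36 pathway genes, 1 mouse lay far from the other 3 by Dixon's criterion, which flags about 1 group in 20 by chance. None was a lipogenic gene. In antagomiR-control replicate 1, the lowest mouse for 5 lipogenic genes, Lpcat3 was at 69.8 FPKM against 91.1 to 95.2 in the other controls, Slc25a1 at 97.3 against 112 to 114, and Thrb at 8.31 against 8.61 to 8.67. In antagomiR-control replicate 2, the highest control for all 10 lipogenic genes, Pnpla3 was at 1.72 FPKM against 0.302 to 0.377. Srebf2 was at 11.9 FPKM in antagomiR-control replicate 4 against 10.2 to 10.3 in the other controls, and at 7.70 in antagomiR-122 replicate 3 against 9.79 to 10.2 in the other treated mice.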

How the results depend on the processing

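Under all 16 alternatives 0 genes passed limma's threshold over all genes, 0 lipogenic genes passed and 0 had groups apart, and the 8 settings that kept every mouse left the median log2 fold change of the 10 genes at 0.16 to 0.20. Over mice left out it ran from -0.022 (without antagomiR-122 replicate 4) to 0.33. With all mice, 828 genes had an unadjusted p under 0.05. Same-numbered mice did not deviate together (correlations of deviations 0.128, -0.238, -0.061 and -0.184). Correlations between mice of unlike numbers ran from -0.206 to 0.335. No pairing by number was seen, but 4 mice per group cannot exclude one. With the replicate block the smallest limma adjusted p of the 10 genes was 0.925, and 660 genes had an unadjusted p under 0.05. Acacb turned to -0.021 when libraries were scaled to equal sums. Leaving out single mice also turned the sign of some log2 fold changes, none past the threshold. Without a sign change, Acly ran from 0.21 to 0.81, Elovl6 from 0.20 to 0.61, Srebf1 from 0.07 to 0.33 and Thrsp from 0.03 to 0.69. With one, over mice left out, Acaca ran from -0.10 to 0.33, Acacb from -0.19 to 0.17, Fasn from -0.024 to 0.52, Scd1 from -0.49 to 0.25, Elovl5 from -0.075 to 0.28, Mlxipl from -0.21 to 0.0061, Fads1 from -0.13 to 0.13, Insig2 from -0.16 to 0.038, Mid1ip1 from -0.25 to 0.10, Pklr from -0.091 to 0.29 and Prkag2 from -0.23 to 0.062. The cause was not tested. With 4 mice per group, the intervals of Scd1, Thrsp, Acly, Fasn and Elovl6 still include differences of 2-fold.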
